A study of Mus musculus with 6 samples.

Results

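H3K27me3 at 9 forkhead genes, Foxa1, Foxa2, Foxc1, Foxc2, Foxd1, Foxf1, Foxf2, Foxl1 and Foxl2, was examined in ovarian granulosa cells (GCs) of the mouse. The genes were taken by name from the 21951 protein-coding genes of the annotation, and each was read in a window from 5 kb upstream of its transcription start site (TSS) to the end of the gene on the mm10 assembly. The GCs came from 3-week-old female ICR mice of no stated genotype, all primed with a gonadotropin, and were collected 6 h after 1 injection of phosphate-buffered saline (PBS) or of cyclophosphamide (CTX), an alkylating chemotherapeutic. The PBS group and the CTX group held 3 libraries each, and the cells of several mice were pooled for each library. Where 3 values are given for a group, they stand in the order of its replicates 1, 2 and 3. The assay was CUT&Tag, in which an antibody against H3K27me3 guides a transposase that cuts and tags the chromatin nearby, and the data were lists of MACS2 peaks called in each library separately at a q-value of 0.05. The question put to the comparison was whether CTX treatment was accompanied by less H3K27me3 at particular genes.

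Forkhead proteins are transcription factors that share a winged-helix DNA-binding domain, and many members of the family direct the formation of particular tissues or cell lineages. H3K27me3 is written by Polycomb repressive complex 2 and is typical of developmental regulator genes that stay silent in a given cell type, where it often lies over CpG-rich DNA. Foxl2 is the exception among the 9 genes, since it is the forkhead factor that GCs use to keep their ovarian identity. The others act elsewhere: Foxa1 and Foxa2 in endoderm-derived organs, Foxc1 and Foxc2 in the mesoderm of the eye, heart and vessels, Foxd1 in the stroma of the developing kidney, and Foxf1, Foxf2 and Foxl1 in the mesenchyme around the gut and lung.

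Depth differed between the libraries. The depth recovered from the peak statistics ranged from 1375 to 1957 reads per Mb of effective genome in the PBS libraries and from 1118 to 1630 in the CTX libraries, and the shallowest library, CTX replicate 3, held 2916 merged peaks against 4244 to 6378 in the other 5. The labelled cell type was checked on the lists. None of 12 GC marker genes, Fshr, Cyp19a1 and Amh among them, had a peak within 2 kb of its TSS in any library, and 2 of the 12, Fshr and Esr2, had a peak in the whole window, in 1 library each. Of 4 genes of the Sertoli cells of the testis, Dmrt1 and Sox9 had a peak in the window in all 6 libraries (near the TSS in 6 and 4), Fgf9 had one in 4 libraries, away from the TSS, and Sox8 had none. Other ovarian cell types were checked too. A peak in the window in any library was found for 1 of 4 oocyte genes, 1 of 3 genes of endothelium and blood, and 2 of 3 genes of theca and stroma. Lack of a peak thus did not set the GC markers apart from those of oocytes, endothelium and blood, and does not by itself identify GCs. In a bulk sample, fewer cells that carry a mark and less mark per cell cannot be told apart.

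Foxl2 had no peak in its window in any of the 6 libraries. The gene (ENSMUSG00000050397.4) is a single exon on the plus strand of chromosome 9, chr9:98955288-98958543 in mm10. Its start is overlapped by the antisense transcript Foxl2os, which reaches 11 bp downstream of the TSS. The nearest H3K27me3 peak lay 399, 615 and 400 kb from the window in the PBS libraries. Under CTX that distance was 842, 161 and 869 kb. The Foxl2 locus was thus without a call over more than 100 kb on either side in both groups, and there was no value to compare between them.

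Foxd1, a gene of the developing kidney stroma, carried a peak over its TSS in all 3 PBS libraries and in none of the CTX libraries. The gene (ENSMUSG00000078302.5) is a single exon on the plus strand, chr13:98354242-98359305. Its peaks covered 487, 666 and 947 bp of the window in the PBS libraries, and 0, 200 and 0 bp in the CTX libraries, so the groups did not overlap (700.0 ± 232 bp against 66.7 ± 115 bp; SD, n = 3 each). Foxd1 was chosen with its promoter difference known, so these values are a description and were not tested. In the PBS libraries the summits at the TSS fell 18, 19 and 5 bp upstream of it, in intervals that together spanned chr13:98353891-98354578. The summits had −log10 q-values of 13.4, 7.11 and 8.31 and by this value stood higher than 93.5%, 81.7% and 81.7% of the rows of their own lists. By fold enrichment, the highest row in the Foxd1 window stood above only 48.1%, 38.8% and 30.8% of them. In PBS replicate 2 that row was not the one at the TSS.

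The 200 bp in CTX replicate 2 were a different element. That peak had its summit at -2555 bp from the TSS, with 30 reads at the summit, a −log10 q-value of 2.77 and a rank above 33.6% of its list. No PBS library had a peak there. PBS replicates 2 and 3 had a second peak further upstream, with summits between -3784 and -3375 bp from the TSS.

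The 250 bases before the TSS of Foxd1 and of Foxl2 are shown because they carry, in the same cells, the recurrent summits of one gene and no peak of the other. Both are read 5′ to 3′ on the plus strand of the RefSeq GRCm38.p6 genome, the patch release of mm10, from chr13:98353992-98354241 and chr9:98955038-98955287. Capitals mark CG dinucleotides, and the Foxd1 summits lie over the last 19 bases.
Foxd1: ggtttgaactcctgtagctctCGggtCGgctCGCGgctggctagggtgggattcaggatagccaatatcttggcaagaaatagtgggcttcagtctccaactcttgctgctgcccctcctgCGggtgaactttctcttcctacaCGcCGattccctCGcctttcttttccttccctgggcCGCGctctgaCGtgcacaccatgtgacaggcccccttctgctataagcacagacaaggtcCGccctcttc
Foxl2: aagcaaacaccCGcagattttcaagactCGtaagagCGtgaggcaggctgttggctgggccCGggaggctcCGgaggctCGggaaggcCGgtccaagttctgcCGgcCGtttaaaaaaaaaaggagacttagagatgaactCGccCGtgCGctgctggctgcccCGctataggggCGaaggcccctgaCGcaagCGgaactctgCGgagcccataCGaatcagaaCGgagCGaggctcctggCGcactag

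The unmarked Foxl2 stretch held 21 CG dinucleotides and the marked Foxd1 stretch 12. Over the 1001 bp centred on the TSS, the ratio of observed to expected CG dinucleotides was 0.763 at Foxl2 and 0.759 at Foxd1, where the median of all protein-coding genes was 0.552. CpG content around the TSS was thus above the median at both genes and did not separate the marked from the unmarked one. Across the 9 genes the ratio ran from 0.474 at Foxa1 to 0.993 at Foxc2, with a median of 0.770, and genes with a peak in all 6 libraries had a median of 0.637. Foxc2, with the highest ratio of the 9, had a peak in 1 library only.

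Whether a site at the PBS level would have been called in the shallower CTX libraries was computed for the Foxd1 TSS. The summit pileups were 75, 47 and 62 reads in the PBS libraries. Scaled to 1000 reads per Mb they were 38.3, 34.2 and 38.9, so the 3 PBS libraries lay close together once depth was taken out. With the local background per read as in PBS, a call needed a scaled pileup of 25.1, 23.9 and 26.8 in the CTX libraries. The PBS mean was 37.1, and it was 30.3 after lowering it by the median log2 difference of -0.29 that CTX showed against PBS over the 1004 genes with a peak in all 6 libraries. Both values lay above the needed ones, but the site was taken for its calls in PBS and its lack of them in CTX, so this is a description and no support for a difference. The local background in the CTX libraries at this site is unknown, and whether depth accounts for the missing calls was not tested.

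**Figure D1:**
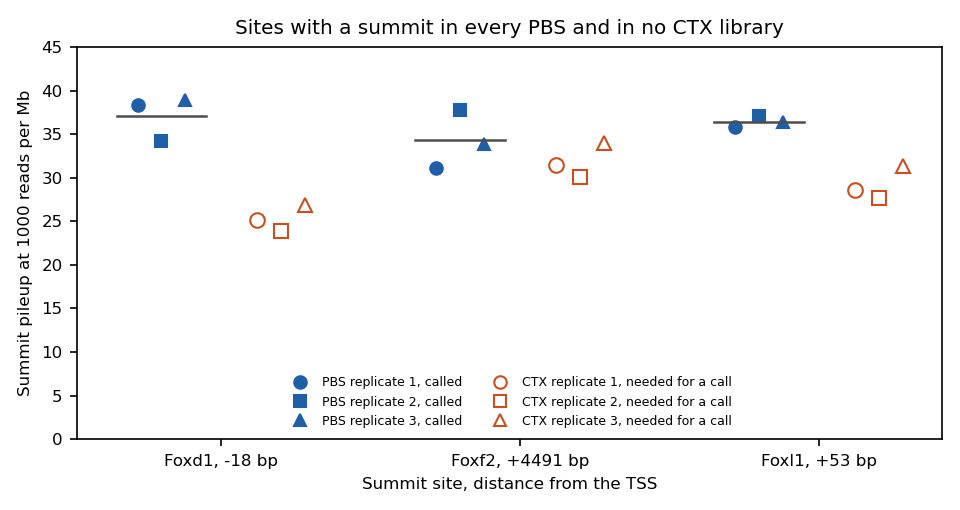
Summit pileup scaled to 1000 reads per Mb (y axis) at the 3 forkhead sites with a summit in all PBS libraries but in none of the CTX libraries (x axis, with the distance from the TSS). An interval of CTX replicate 1 with its summit elsewhere covered the Foxf2 site. Filled blue symbols are the PBS libraries with their mean as a line. Open orange symbols are the pileup that a call would have needed in each CTX library if the local background per read was as in PBS. The PBS mean lies above the needed values at all 3 sites, by most at Foxd1 (37.1 against 23.9 to 26.8) and by least at Foxf2 (34.3 against 30.1 to 34.0).

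The same values, chosen in the same way, were computed at the only other 2 sites of the 9 genes with a summit in all PBS libraries but none of the CTX libraries. At Foxl1, the site 53 bp downstream of the TSS had scaled pileups of 35.8, 37.1 and 36.4 in the PBS libraries, and a call needed 28.6, 27.6 and 31.3 in the CTX libraries. Lowered by the same median difference, the Foxl1 mean became 29.7, which lay within the range of those limits. At Foxf2, a site 4491 bp downstream of the TSS had scaled pileups of 31.2, 37.8 and 33.9, against needed values of 31.4, 30.1 and 34.0. The Foxf2 mean of 34.3 exceeded all 3 of these, narrowly in CTX replicate 3, and lowered by the median difference it became 28.0, below all 3. The needed values assumed the PBS background per read, at Foxf2 23.9, 27.1 and 18.6 reads in the CTX libraries. At CTX summits 4911 to 4929 bp downstream of that TSS the background was 17.9, 20.4 and 12.9. At Foxl1, 21.3, 24.2 and 16.6 were assumed, against 15.8, 19.2 and 11.7 at CTX summits within the gene. A lower background lowers the needed pileup, so these comparisons settle nothing. An interval of CTX replicate 1 with its summit elsewhere covered the Foxf2 site.

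Merged over the libraries, the windows of the 9 genes held 22 regions. Of these, 2 were present in each PBS library but no CTX library, the TSS regions of Foxd1 and Foxl1, against 1.64% of all 12430 regions. None was present in every CTX and no PBS library, against 0.0885% of all regions. The Foxd1 region was known when that gene was chosen, so the count of 2 is a description only. Regions seen in 1 library, which cannot meet either rule, were 6 of the 22 and 7803 of the 12430. Presence in all 6 libraries was found for 2 of the 22, at Foxf2 and Foxl1.

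Foxl1, a factor of the gut mesenchyme, was marked in all 6 libraries. The gene (ENSMUSG00000097084.1) is a single exon on the plus strand, chr8:121127940-121130644. Covered bp were 1012, 796 and 1210 in the PBS libraries and 200, 406 and 658 in the CTX libraries. Every CTX library lay below every PBS library (1006 ± 207 bp against 421 ± 229 bp; SD, n = 3 each; two-sided exact permutation p = 0.1, the smallest that 3 against 3 libraries can give). The bases within the gene were shared unevenly. A region 40 bp upstream to 234 bp downstream of the TSS was called in the 3 PBS libraries only, whereas a region from 542 to 1568 bp downstream, over the end of the coding sequence and the start of the 3′ UTR, was called in all 6. Most of the 658 bp in CTX replicate 3 came from a 418 bp region at -2814 to -2397 bp that no other library had. Per Mb of all sequence covered in its list, Foxl1 had 708 bp in CTX replicate 3, above the 356 to 487 bp of the PBS libraries, so the separation of the groups did not hold on that scale. The scaled pileup at the highest Foxl1 summit was 35.8, 37.1 and 45.8 in the PBS libraries and 29.3, 38.7 and 41.1 in the CTX libraries, and the groups overlapped (exact permutation p = 0.6).

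Foxc1, which takes part in eye and vessel development, was marked upstream of its TSS and near the end of its transcript. The gene (ENSMUSG00000050295.4) is a single exon on the plus strand, chr13:31806633-31812476. Covered bp were 1211, 831 and 894 in the PBS libraries, and 431, 713 and 0 in the CTX libraries. All 3 CTX values lay below the lowest PBS value (979 ± 204 bp against 381 ± 359 bp; SD, n = 3 each; exact permutation p = 0.1). The strongest −log10 q-value overlapped between the groups, at 8.35, 3.75 and 9.90 in the PBS libraries and 5.78 and 7.83 in CTX replicates 1 and 2, with no peak in CTX replicate 3 (exact permutation p = 0.4).

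A summit 708 to 734 bp upstream of the Foxc1 TSS recurred in 5 libraries, all but CTX replicate 3, and its position varied by less than 30 bp. The 121 bases around it are shown as the site most often called upstream of any of the 9 genes, from chr13:31805851-31805971 on the plus strand of GRCm38.p6, with CG dinucleotides in capitals.
Foxc1: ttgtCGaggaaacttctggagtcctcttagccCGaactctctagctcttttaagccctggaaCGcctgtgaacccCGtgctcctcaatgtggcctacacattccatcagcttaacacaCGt

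This stretch held 5 CG dinucleotides, an observed to expected ratio of 0.674. The TSS of Foxc1 itself, with a ratio of 0.942 over 1001 bp, carried no peak in any library. The second Foxc1 region, 5085 to 5679 bp downstream of the TSS and within the 3′ UTR, was called in 3 PBS libraries and in CTX replicate 2.

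**Figure D2:**
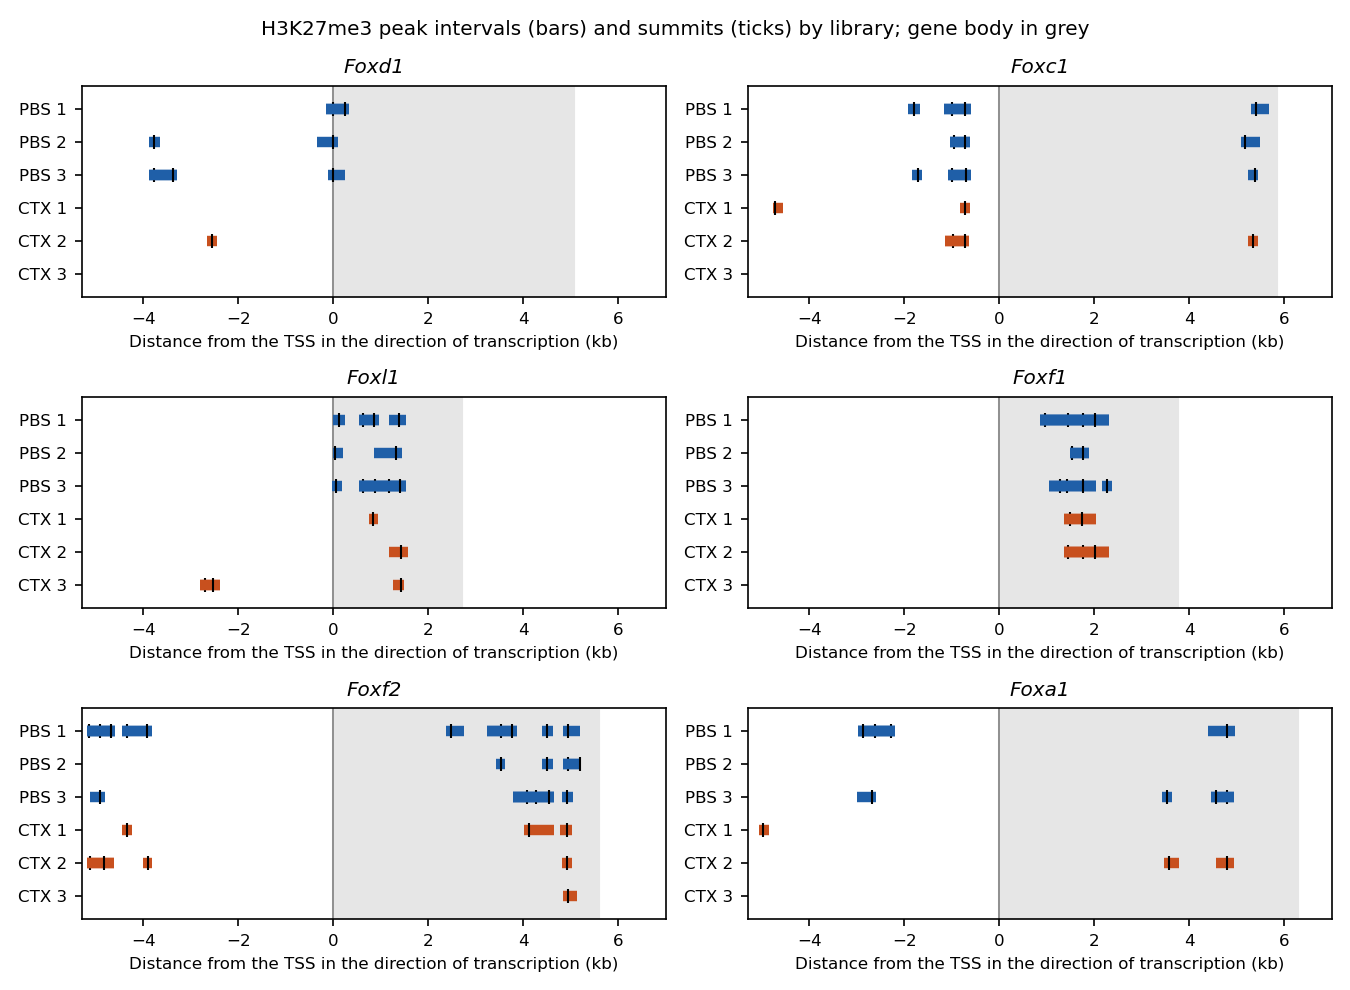
H3K27me3 peak intervals (bars) and summits (black ticks) of each library (rows, PBS in blue, CTX in orange) against the distance from the TSS in kb, in the direction of transcription, at 6 forkhead genes, with the gene body in grey. Foxd1 and Foxl1 show TSS intervals in the PBS rows only, and Foxf2 shows an interval near 4.9 kb in all 6 rows.

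Foxf1, a regulator of lung and gut mesenchyme, carried its mark mainly in the intron. The gene (ENSMUSG00000042812.5, plus strand, chr8:121084386-121088144) has 2 exons. Covered bp were 1461, 393 and 1203 in the PBS libraries and 680, 937 and 0 in the CTX libraries, which overlapped (exact permutation p = 0.4). The strength of the peaks did not overlap. The strongest −log10 q-value was 12.7, 11.2 and 15.4 in the PBS libraries and 4.89 and 8.91 in CTX replicates 1 and 2, with no peak in CTX replicate 3 (13.1 ± 2.13 against 4.60 ± 4.46 with that library at 0; SD, n = 3 each; exact permutation p = 0.1). A summit 1738 to 1763 bp downstream of the TSS recurred in the 5 libraries with a peak. Highest scaled pileups at Foxf1 were 57.2, 57.4 and 66.5 in the PBS libraries and 39.1 and 47.3 in CTX replicates 1 and 2.

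Foxf2, its close relative in the palate and gut mesenchyme, had the highest mean covered bp of the 9 genes in both groups, though Foxc1 had more in PBS replicate 2, Foxf1 in CTX replicate 2 and Foxl1 in CTX replicate 3. The gene (ENSMUSG00000038402.2, plus strand, chr13:31625816-31631403) has 2 exons. Covered bp were 2647, 816 and 1270 in the PBS libraries and 1101, 781 and 298 in the CTX libraries, where CTX replicate 1 lay above PBS replicate 2 (exact permutation p = 0.2). A summit in the 3′ UTR, 4911 to 4947 bp downstream of the TSS, was the only one of the 46 distinct summit sites at the 9 genes found in all 6 libraries. The highest scaled pileup of Foxf2 was 52.6, 48.0 and 60.8 in the PBS libraries and 37.0, 38.7 and 38.5 in the CTX libraries. These did not overlap (53.8 ± 6.50 against 38.0 ± 0.915; SD, n = 3 each; log2 difference -0.50; exact permutation p = 0.1). They came from different sites, the 3′ UTR summit in PBS replicates 1 and 3 and CTX replicate 3 and other summits elsewhere. At the 3′ UTR summit the pileups before scaling to depth were 103, 55 and 97 reads in PBS and 50, 62 and 43 in CTX. There CTX replicate 2 lay above the shallower PBS replicate 2. Lower scaled pileups in every CTX library were found for 40.6% of the 1004 genes with a peak in all 6 libraries, whose median log2 difference was -0.29, so the direction at Foxf2 was common among such genes.

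Foxa1 and Foxa2, pioneer factors of endoderm, and Foxc2, a factor of lymphatic vessels, were marked in 4, 2 and 1 of the 6 libraries. Foxa1 (ENSMUSG00000035451.7, minus strand, chr12:57540628-57546916) had 1356, 0 and 1097 bp covered in the PBS libraries and 142, 681 and 0 bp in the CTX libraries (exact permutation p = 0.4). Its values thus spread as widely within the groups as between them. Foxa2 (ENSMUSG00000037025.11, minus strand, chr2:148042877-148046969) had 279 and 302 bp covered in PBS replicates 1 and 3 and none in the other 4 libraries (exact permutation p = 0.4). These Foxa2 peaks were weak, ranking above 30.7% and 3.69% of the rows of their lists. Foxc2 (ENSMUSG00000046714.7, plus strand, chr8:121116171-121118895) had a single 200 bp peak, in PBS replicate 1, the deepest library.

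**Figure D3:**
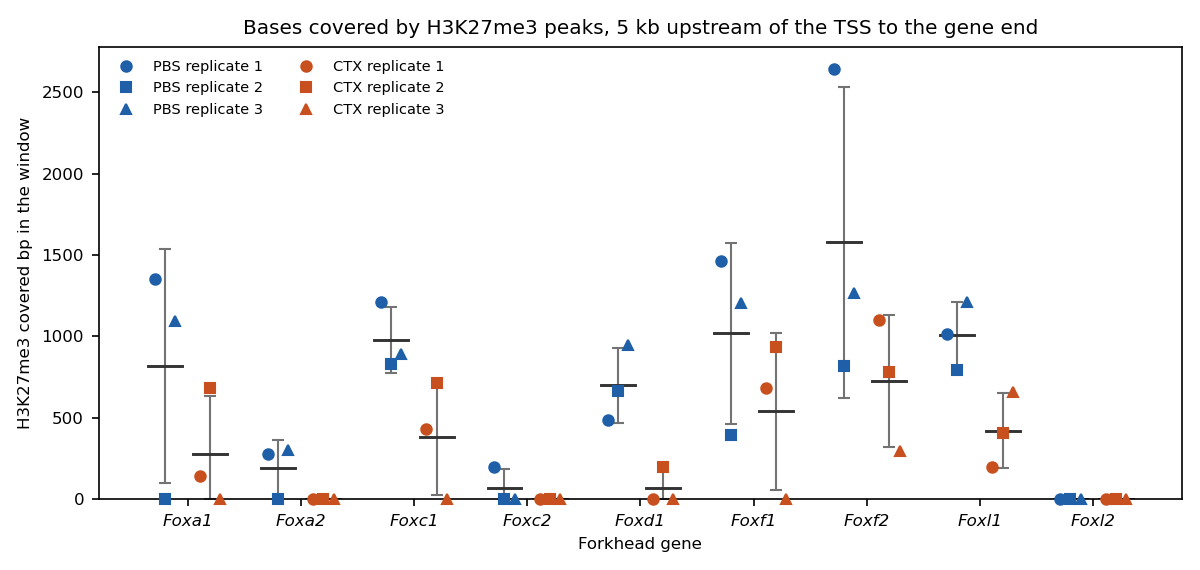
Bases covered by H3K27me3 peaks (y axis, bp) in the window of each of the 9 forkhead genes (x axis), with 1 symbol per library, PBS in blue and CTX in orange. Horizontal lines are group means and vertical bars 1 SD to either side, ended at 0; the groups do not overlap at Foxc1, Foxd1 and Foxl1, and Foxl2 is at 0 in all 6 libraries.

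Over the 9 genes, 8, 5 and 7 had a peak in the PBS libraries, and 5, 6 and 2 in the CTX libraries (6.67 ± 1.53 against 4.33 ± 2.08; SD, n = 3 each). The groups overlapped in this number. Covered bp summed over the genes were 8653, 3502 and 6923 in the PBS libraries and 2554, 3718 and 956 in the CTX libraries, where CTX replicate 2 exceeded PBS replicate 2. No test was made on these sums, since the genes were chosen with results of these data known. Both numbers moved with depth: the deepest library, PBS replicate 1, had the highest of each and the shallowest, CTX replicate 3, the lowest. The share of all protein-coding genes with a peak went the same way, from 12.3% in PBS replicate 1 to 7.19% in CTX replicate 3.

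Libraries of like depth in different groups were therefore set side by side. CTX replicate 2 (1630 reads per Mb) had a peak at 6 of the 9 genes and 3718 bp covered, and PBS replicate 3 (1595 reads per Mb) had a peak at 7 and 6923 bp covered. All 7 of those genes, among them Foxd1, which was chosen for its difference, were covered less in CTX replicate 2. CTX replicate 1 (1433 reads per Mb) had a peak at 5 genes and 2554 bp covered, and PBS replicate 2 (1375 reads per Mb) also had a peak at 5, with 3502 bp. In that pair 3 genes were covered less in CTX and 3 more, so the pairs differed in the count of genes that went down. The share of all protein-coding genes covered less was not computed for either pair, so these counts have no baseline. The whole lists covered 2.49 Mb in PBS replicate 3 against 1.94 Mb in CTX replicate 2, and 1.74 Mb in PBS replicate 2 against 1.45 Mb in CTX replicate 1.

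**Figure D4:**
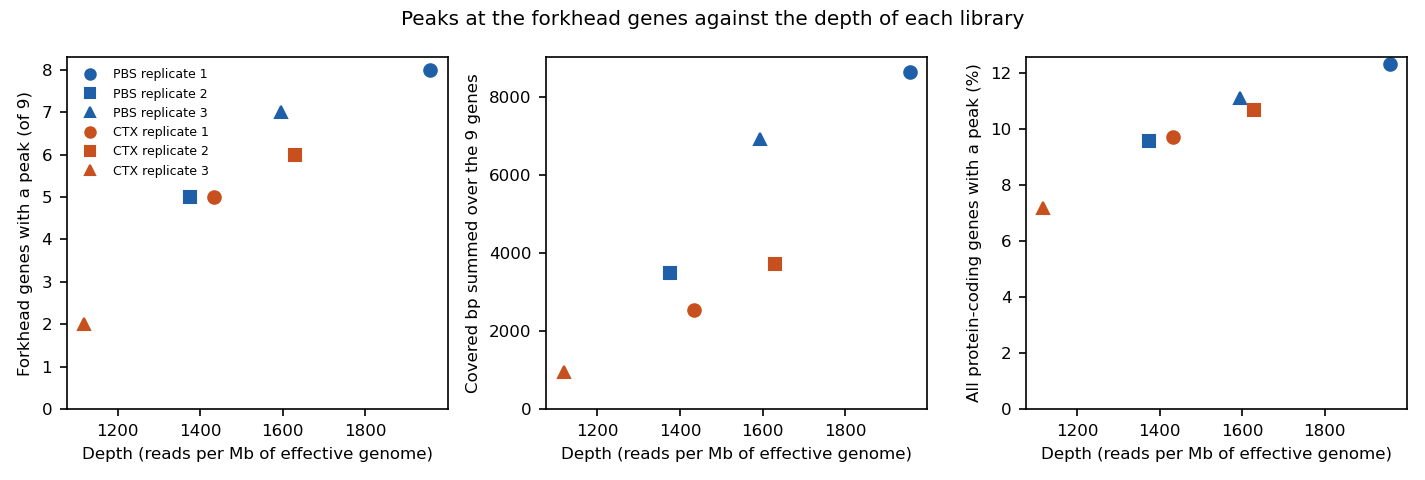
Number of the 9 forkhead genes with a peak, their summed covered bp, and the percentage of all protein-coding genes with a peak (y axes, left to right) against depth in reads per Mb (x axes), with 1 symbol per library. All 3 measures are lowest in CTX replicate 3 and highest in PBS replicate 1, and at about 1600 reads per Mb PBS replicate 3 lies above CTX replicate 2. The other pair of like depth, PBS replicate 2 and CTX replicate 1, has 5 and 5 genes, 3502 and 2554 bp, and 9.58% and 9.73%.

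Foxc1, Foxd1 and Foxl1 were covered less in every CTX library than in every PBS library, 3 of the 9 genes, of which Foxd1 was chosen for its difference. None of the 9 was covered more in every CTX library. Among the 4283 protein-coding genes with a peak in any library, 14.0% were covered less in every CTX library and 0.280% more. Among the 1665 genes with a peak in all PBS libraries the share covered less was 35.9%, and 5 of the 9 genes were of that kind. Without PBS replicate 2, 7 of the 9 genes, all but Foxc2 and Foxl2, were covered less in every CTX library, and so were 32.3% of the genes with a peak in the remaining libraries. The strongest −log10 q-value was lower in every CTX library at Foxd1 and Foxf1, a direction found for 11.3% of the 4283 genes. No gene passed a Benjamini-Hochberg adjustment of the exact permutation p over all 4283 genes, where the smallest adjusted p was 0.702 and 610 genes reached the unadjusted floor of 0.1.

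Differences in the size of the lists were taken out of covered bp in 2 ways, under both of which the groups stayed apart at Foxd1 alone. Since Foxd1 was chosen for its difference, this describes its values and adds no support to them. With each list held to its 2916 strongest merged peaks, Foxd1 was covered less in every CTX library and Foxc1 and Foxl1 were not, where 12.9% of genes with such a peak went that way. Per Mb of all covered sequence of a list, Foxd1 had 171, 383 and 381 bp in the PBS libraries and 0, 103 and 0 bp in the CTX libraries. On that scale 6.28% of the 4283 genes were lower in every CTX library. Holding the lists to equal peak numbers drops the weakest peaks and cannot change the −log10 q-value of a peak that is kept. The strongest −log10 q-value of Foxf1 therefore kept its difference of -8.49 (exact permutation p = 0.1) by construction. It was not scaled to depth.

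The genes whose covered bp were most like those of Foxd1 over the 6 libraries, by Euclidean distance of log2(bp + 1), were Isl1, Lingo2, Dlk2, Arhgap30 and Usf1, at distances of 0.313, 0.761, 0.816, 0.837 and 0.837. Isl1, the nearest, had 584, 605 and 882 bp covered in the PBS libraries and 0, 200 and 0 bp in the CTX libraries. Arhgap30 and Usf1 are neighbours, and the same peaks fell in both of their windows.

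Summits fell in every kind of position. Of 96 summits in the 9 windows, 37 were upstream, 25 in introns, 17 in 3′ UTRs, 16 in coding sequence and 1 in a 5′ UTR. Within 2 kb of the TSS, Foxa1, Foxa2, Foxf2 and Foxl2 had no covered base in any library. Of the 46 distinct summit sites, 21 were seen in 1 library and 6 in at least 4, which lay at Foxc1, Foxf1, Foxf2 and Foxl1. The 22 regions had a median observed to expected CpG ratio of 0.370 and a median length of 505 bp, against 0.242 and 236 bp over all 12430 regions.

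Of the 9 genes, 5 lie in 2 clusters of forkhead genes. On chromosome 8, Foxf1, Foxc2 and Foxl1 follow one another on the plus strand, with the non-coding RNA gene Fendrr upstream of Foxf1 and Mthfsd between Foxf1 and Foxc2. The annotation also places the long gene Gm20388 over the whole cluster, so peaks there can be assigned to it as well. Covered bp over the 85.8 kb were 5163, 2221 and 4005 in the PBS libraries and 1768, 2403 and 1302 in the CTX libraries, which overlapped. The mark was broken into 11 regions, of which 3 were present in all 6 libraries. One lay within Fendrr, one between Foxf1 and Mthfsd, 5460 to 6169 bp downstream of the Foxf1 TSS, and one within Foxl1. Mthfsd had no covered base in its window in any library.

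On chromosome 13, Foxq1, Foxf2 and Foxc1 lie within 266 kb. The cluster held 17 regions, and the 3′ UTR region of Foxf2 was the only one in all 6 libraries. Covered bp were 5480, 2058 and 3367 in the PBS libraries and 1732, 2559 and 498 in the CTX libraries, and again CTX replicate 2 lay above PBS replicate 2. Between Foxf2 and the region upstream of Foxc1 no peak was called over more than 100 kb in any library.

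**Figure D5:**
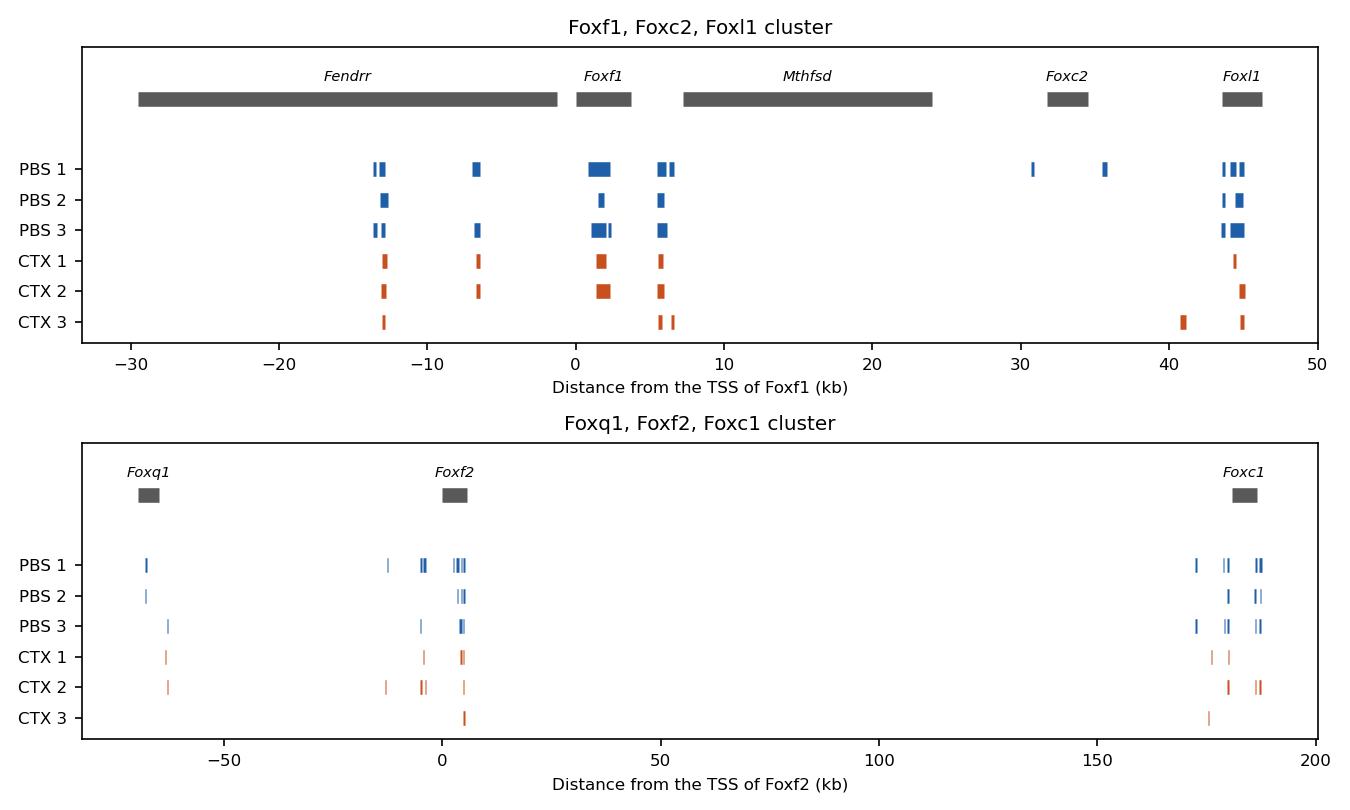
Merged H3K27me3 peaks of each library (rows, PBS in blue, CTX in orange) over the chromosome 8 and chromosome 13 forkhead clusters, against the distance in kb from the TSS of Foxf1 (upper panel) and of Foxf2 (lower panel), with genes as grey bars. Fendrr, the gap between Foxf1 and Mthfsd, and Foxl1 carry peaks in all 6 rows, and Mthfsd carries none.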

How the data were processed

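The deposited files were 6 narrowPeak lists, 1 per library. According to the study's methods and the processing notes, the authors trimmed reads with fastp, aligned them to mm10 with BWA, kept uniquely mapped de-duplicated reads and called peaks per library with MACS2 2.1.0. HOMER 4.9.1 and ChIPseeker served for annotation, and bedtools for merging the peaks of the groups. Use of a control library is not given in the sources used here. In the deposited lists the score is the −log10 q-value times 10, the fold enrichment is a ratio of pileup to local background, the −log10 p-value and −log10 q-value belong to each summit, and the last column is the summit offset; the authors made all of these values. H3K27me3 domains are broad, so narrow peaks split them.

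Overlapping or touching intervals of 1 list were joined. Covered bp and the strongest −log10 q-value were taken per library in each window (GENCODE M21 gene models). Pileups and depth were solved from the fold enrichment and p-value (tolerance 0.001) and scaled to 1000 reads per Mb; intervals on peaks and depths reflect counting only. PBS and CTX were compared with a two-sided exact permutation test over libraries (Python 3.11.15, SciPy 1.17.1). Each p is the share of regroupings of the 6 libraries with an absolute difference in means at least as large as that observed. The code was tested on simulated data. All 9 genes were named, with the other forkhead genes having a peak in all 6 libraries or separating the groups by presence, the cluster neighbours and the 5 genes most like Foxd1. The genes and lists were chosen with earlier results of these data known. Alternatives changed the q-value threshold, peak number, window, overlap, joining, libraries, depth scaling and ranking.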

Additional observations from a re-analysis of the deposited data

How the results depend on the processing

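Relative to PBS, the mean number of the 9 genes with a peak was lower in CTX by -2.33 and their summed covered bp by -3950, and both kept that direction under all alternatives run, with -3.17 to -1.17 genes and -5379 to -2803 bp when single libraries were left out. The count of genes covered less in every CTX library, 3, was more dependent on the processing. It was 1 with equal peak numbers and 1 per Mb of sequence covered in the list (an alternative chosen after seeing the data), and it ran from 3 to 7 when single libraries were left out; the 7 came without PBS replicate 2. It was 2 at q-values of at most 0.01 or 1e-05, within 2 kb of the TSS and in the wider window, and 4 with intervals within 1000 bp joined; the causes were not tested. Of 224 values of single genes under these alternatives, 209 kept their direction, 12 fell to 0 and 3 reversed. The 209 include values that an alternative could not change, such as mean differences under the replicate block and −log10 q-values of peaks kept in a shorter list. With single libraries left out, the CTX minus PBS difference in the strongest −log10 q-value ran from -4.26 to 0.38 at Foxa1, positive without PBS replicate 1 (0.077) and without CTX replicate 3 (0.38), and from -3.54 to 0.45 at Foxl1, positive without PBS replicate 3. The log2 pileup of Foxl1 ran from -0.22 to 0.013, positive without CTX replicate 1. Ranks in the lists were also taken by fold enrichment instead of the −log10 q-value. The CTX minus PBS difference in the percentage of rows below then moved from -52.0 to -24.1 at Foxd1 and from -6.46 to -21.3 at Foxf2. It moved by less than the spread at Foxa1, Foxc1, Foxf1 and Foxl1. Without scaling to depth the log2 pileup difference was -0.74 at Foxf2 and its median over all genes with a peak in every library -0.52, against -0.50 and -0.29 with it. Libraries with the same replicate number showed no sign of pairing (correlations of deviations from -0.04 to -0.02). The labels do not say whether they were handled together, and these correlations cannot exclude it. With the replicate block, 4 genes were lower in each same-numbered pair, and the share of all genes that met this rule was not computed. The mean differences of -2.33 genes and -3950 bp cannot change under the block, and no p could go below 0.25. Absence from a list is absence of a call at this depth, not of the mark.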

Other observations

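The other 35 forkhead genes of the annotation that were listed fell into 3 kinds. H3K27me3 was called in all 6 libraries at 7, namely Foxa3, Foxb1, Foxe3, Foxh1, Foxi2, Foxi3 and Foxn4, in 1 to 5 libraries at 12, and in none at 16. Foxi3, an ectodermal factor, had the most covered sequence of the 7 in every library, with 2183, 1881 and 2186 bp in PBS replicates 1, 2 and 3 and 2094, 2021 and 1229 bp in CTX replicates 1, 2 and 3. Its groups overlapped. Foxa3, the third member of the liver-enriched Foxa group, had 1600, 1211 and 1449 bp in the PBS libraries and 704, 796 and 421 bp in the CTX libraries, which did not overlap. Foxd4, Foxi2 and Foxn4 were also covered less in every CTX library, and none of the 35 was covered more in every CTX library. Of all protein-coding genes with a peak in any library, 14.0% were covered less and 0.280% more. Of those with a peak in all PBS libraries, as these 4 had, 35.9% were covered less. The 16 without a peak included broadly expressed genes such as Foxo3, Foxp1 and Foxk1 and tissue-restricted ones such as Foxn1, a thymus factor, and Foxp3, a factor of regulatory T cells, and Foxo1 had 200 bp in CTX replicate 1 only (these 6 were named after their values were seen). None of the 35 had a peak in all libraries of 1 group and in none of the other.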
